A study of Mus musculus with 8 samples.

Results

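The comparison set H3.3 K36A and H3.3 K36L against H3.3 WT and H3.3 K36R, 4 of the 8 RNA-seq libraries of the study. All 8 came from C3H10T1/2, a multipotent mesenchymal line derived from C3H mouse embryos, stably expressing a FLAG-HA-tagged histone H3 transgene. Within the comparison, the transgene encoded histone H3.3, the H3 variant deposited outside DNA replication. It carried alanine (K36A), leucine (K36L), the native lysine (WT) or arginine (K36R) at position 36. Alanine and leucine have aliphatic side chains, so K36A and K36L are called the aliphatic class. WT and K36R, which keep a basic residue, are called the basic class. Isoleucine is aliphatic too, but H3.3 K36I was set aside with H3.3 K36M. The name thus stands for K36A and K36L only, not for aliphatic residues in general. The 4 libraries were chosen by transgene alone, and no expression value entered that choice. The other 4 libraries (H3.3 K36M, H3.3 K36I, H3.1 K36M and H3.1 K36R) took no part in the test. No further treatment is given in the labels for any of the 4 lines, which were all grown in 10% serum to passage 10 to 15. The WT line also carries a tagged transgene, so no line without one was compared. Each transgene had 1 library, and each class held 2 libraries of different lines. A line's clonal history, the transgene's level and the endogenous H3 that remains were not used here, and the spread within a class mixes the difference between residues with the difference between cultures.

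Lysine 36 of histone H3 is methylated by NSD1, NSD2 (Whsc1), NSD3 (Whsc1l1), ASH1L and SETD2, the last of which travels with elongating RNA polymerase II and makes the trimethyl form over gene bodies. Methylation at this lysine opposes PRC2, the complex of EZH2, EED and SUZ12 that methylates lysine 27 of the same tail. Methionine or isoleucine at position 36 blocks the lysine 36 methyltransferases in trans, as found in chondroblastoma and some sarcomas. Alanine, leucine and arginine at this position cannot themselves be methylated by these enzymes.

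The mouse genome holds a pair of H3.3 genes whose coding sequences specify the same protein and share 76.9% of their bases over 136 codons. The stretch around the substituted residue is shown because it is where the transgenes differ from each other. It is the reference sequence of the endogenous genes, and the codons used in the transgenes were not used here. The capitals mark the codon of lysine 36, counted without the start codon, in exon 2 of each gene, and both stretches lie on the minus strand (GENCODE M21, build GRCm38; H3f3a chr1:180811804-180811830, H3f3b chr11:116023887-116023913). They differ at 5 of 27 bases, and the lysine codon is the same.
H3f3a: actggaggggtgAAGaaacctcatcgt
H3f3b: accggcggggtgAAGaagcctcaccgc

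The 4 libraries were of like depth, from 61840264 to 64093436 reads assigned to genes. Values are given as normalised reads, scaled by 1 size factor per library, and differences are on the authors' variance-stabilised log2 scale, on which the lowest value, 5.95, stands for 0 reads. Rn45s, the 45S precursor of ribosomal RNA, differed between the classes. It took 5.24% of the reads assigned to genes in K36A and 3.11% in K36L, against 2.05% in WT and 1.66% in K36R. Both aliphatic libraries were thus above both basic ones, with 3216318 and 1872057 normalised reads against 1194005 and 1001999. The log2 difference was 1.17 with a standard error (SE) of 0.41, and it did not pass the test over all genes (limma, Benjamini-Hochberg adjusted p = 0.799). The 4 libraries outside the comparison had 1.7% to 2.19%. With the classes apart in Rn45s, residue and Rn45s level cannot be told apart in these 4 libraries.

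The cells carried the markers of mesenchyme in every library. Pdgfra, a receptor of mesenchymal cells, had 7260 to 8570 normalised reads, the filament gene Vim 235194 to 302757, and Col1a2, a chain of type I collagen, 190598 to 290430. Of the leukocyte markers, Tyrobp and Cd3e had 0 reads in all 4 libraries and Ptprc at most 3.9 normalised reads. The neural markers Snap25, Syt1 and Olig2 also had 0 reads, but Tubb3, a neuronal tubulin, had 1883 to 3518, and the neural list as a whole summed to 24937 to 41555. The endothelial Pecam1 had 5.75 to 20.5 and Vwf 108 to 243. Epithelial markers were mixed. Epcam, Krt8 and Krt18 stayed at or below 14.9, while Krt14 ranged from 764 to 7403 and Cdh1 from 292 to 787.

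**Figure D1:**
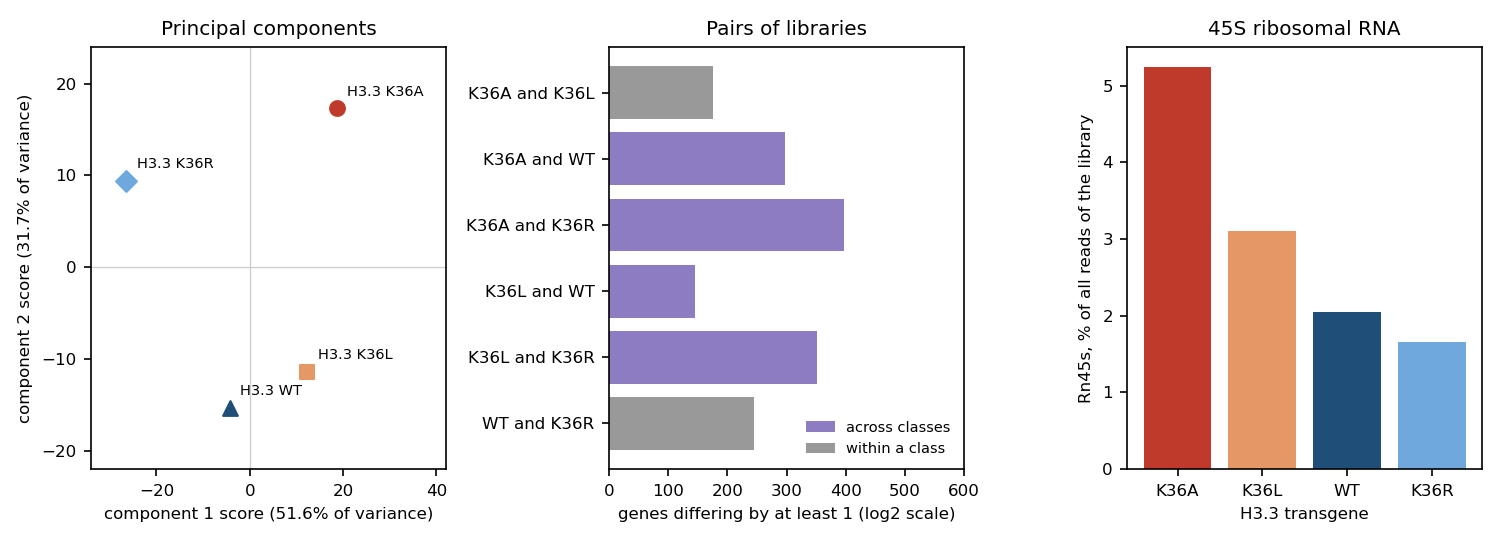
Left, scores of the 4 libraries on the first 2 principal components of the 14030 tested genes. Middle, number of genes differing by at least 1 on the log2 scale between each pair of libraries. Right, Rn45s as a percentage of the reads assigned to genes in each library, which the axis calls all reads. K36L and WT are the closest pair, with 145 genes, and Rn45s runs from 5.24% in K36A to 1.66% in K36R.

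Of 14030 genes with a mean over the 4 libraries at least 1 above the lowest value, 0 (0%) passed an adjusted p of 0.05 between the classes (limma with an intensity trend), and voom on the recovered reads also called 0. At an unadjusted p of 0.05, limma found 851 genes (6.07%), 366 of them higher (2.61%) and 485 lower (3.46%) in the aliphatic class. The classes did not overlap in 4923 genes (35.1%), of which 2420 were higher (17.2%) and 2503 lower (17.8%). A gap of at least 0.5 on the log2 scale separated the classes in 201 genes (1.43%), 83 higher (0.592%) and 118 lower (0.841%), and a gap of at least 1 in 58 genes (0.413%), 20 higher (0.143%) and 38 lower (0.271%). The median difference over all genes was 0.002. No gene or list below is therefore described as changed, and the values are given with their standard errors. An exact permutation test of 2 libraries against 2 cannot go below a two-sided p of 0.333, so none was run for single genes. That 0.333 is also the share expected not to overlap if the 4 libraries of a gene fell in random order, beside the 35.1% found. For an unadjusted p under 0.05 the share expected without any difference is 0.05, beside the 6.07% found.

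The residue at position 36 did not order all pairs of libraries by class. K36A and K36L differed by at least 1 in 175 genes (1.25%), and WT and K36R in 245 (1.75%). Across the classes, K36A differed from WT in 297 genes (2.12%) and from K36R in 398 (2.84%), and K36L from K36R in 352 (2.51%). K36L and WT, however, differed in 145 genes (1.03%), the fewest of the 6 pairs although they belong to different classes. These counts compare single libraries and have no test. The first principal component held 51.6% of the variance and placed K36A at 18.6, K36L at 12.3, WT at −4.3 and K36R at −26.5. The second, with 31.7%, set K36A (17.3) and K36R (9.4) against K36L (−11.4) and WT (−15.3).

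The gene with the smallest p-value was Pgm5 (chr19:24683016-24861855), which encodes a phosphoglucomutase-like protein of adherens junctions. It was chosen after its values were seen. Pgm5 had 769 normalised reads in K36A and 755 in K36L, against 3912 in WT and 3471 in K36R. Within each class the values lay close together and the classes were far apart, which a choice by smallest p-value favours. Its log2 difference was −2.11 (SE 0.11) with an unadjusted p of 4.11e-06 and an adjusted p of 0.0576 (limma), which did not pass. Another 4 settings took it past the threshold, with adjusted p from 0.0386 to 0.0442, and over all alternatives and left-out libraries its adjusted p ran from 0.037 to 1. Jup (plakoglobin, a junction protein that binds cadherins), Angpt1 (angiopoietin 1, a ligand of the Tek receptor) and Rspo2 (R-spondin 2), also chosen after their values were seen, were similarly tight within each class. Jup had 1536 and 1284 normalised reads in K36A and K36L against 362 in WT and 407 in K36R, a difference of 1.61 (SE 0.14, limma adjusted p = 0.197). Angpt1 had 20688 and 17307 against 8063 and 9357, a difference of 1.11 (SE 0.13, limma adjusted p = 0.291), and its exons overlap a predicted gene on the other strand.

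By size, 12 genes were named in each direction, among those whose classes did not overlap and whose unadjusted p was under 0.05. None passed the adjusted threshold: adjusted p ran from 0.291 to 0.812 for the higher ones and from 0.179 to 0.811 for the lower ones. The higher genes included cartilage proteins, an imprinted RNA, an RNA-binding protein and a keratin. The lower ones were mainly cadherins and secreted or matrix proteins, with an R-spondin among the latter, and also held a cannabinoid receptor.

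Of the 12 higher genes, 3 encode proteins of cartilage. Col9a1 (chr1:24177610-24252684), a chain of type IX collagen, had 10553 normalised reads in K36A, 3899 in K36L, 870 in WT and 652 in K36R. Both aliphatic libraries were above both basic ones and K36A stood highest. The mean reads were 9.49-fold higher, with a log2 difference of 2.91 (SE 0.46; limma adjusted p = 0.329). Lect1 (chr14:79637690-79662170), chondromodulin, an inhibitor of vessel growth in cartilage, had 1852, 1217, 216 and 52.2 in the same order, 11.5-fold higher with a difference of 2.87 (SE 0.41). Cytl1 (chr5:37735519-37739820), a secreted protein of chondrocytes, had 2629, 3110, 1699 and 374. Its WT value lay nearer to K36L and K36A than to K36R, and its difference was 1.66 (SE 0.60).

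Among the other higher genes, Pcdh11x (chrX:120290259-120910619), an X-linked protocadherin, had 833 normalised reads in K36A and 394 in K36L against 16.7 in WT and 17.1 in K36R. That is 36.3-fold in mean reads, with a difference of 2.75 (SE 0.31; limma adjusted p = 0.291). Kcna6 (chr6:126708329-126740674), a voltage-gated potassium channel, had 238 and 113 against 1.86 and 0, levels too close to 0 in the basic class for a fold. Heph (chrX:96455359-96574485), the copper-dependent ferroxidase hephaestin, had 247 and 70.2 against 0 in WT and 9.5 in K36R. These 3 genes were near 0 in both basic libraries. Their basic means (6.70, 6.08 and 6.23) lay below the filter value of 6.95, so they were tested only because of their aliphatic values. H19 (chr7:142575529-142578143), an imprinted long non-coding RNA, had 1696, 600, 145 and 217 normalised reads, a difference of 1.98 (SE 0.45). Igf2bp3 (chr6:49085223-49214957), an RNA-binding protein of fetal tissue, had 1302, 878, 182 and 264, a difference of 1.84 (SE 0.23). Both were highest in K36A.

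With Cytl1, 5 of the 12 were highest in K36L. Krt14 (chr11:100203162-100207548), a basal epithelial keratin, had 1890 normalised reads in K36A and 7403 in K36L against 1462 in WT and 764 in K36R. K36A and WT were close, and K36L alone stood apart; the difference was 1.72 (SE 0.65; limma adjusted p = 0.812). Efemp1 (fibulin 3, a matrix protein; chr11:28853204-28926743) had 1192, 2673, 794 and 175. Aif1l (chr2:31950139-31973442), an actin-binding protein, had 852, 1357, 361 and 125. Mgst1 (chr6:138140316-138156755), a microsomal glutathione transferase, had 467 and 518 against 134 and 47.5, close within the aliphatic class, with a difference of 1.70 (SE 0.26). In all, K36A was above K36L in 7 of the 12 higher genes, and WT above K36R in 8. Exons of another annotated gene overlap those of Kcna6, H19, Aif1l, Igf2bp3 and Heph, and the strand setting of the counting is not given, so part of their reads may belong to the neighbour.

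**Figure D2:**
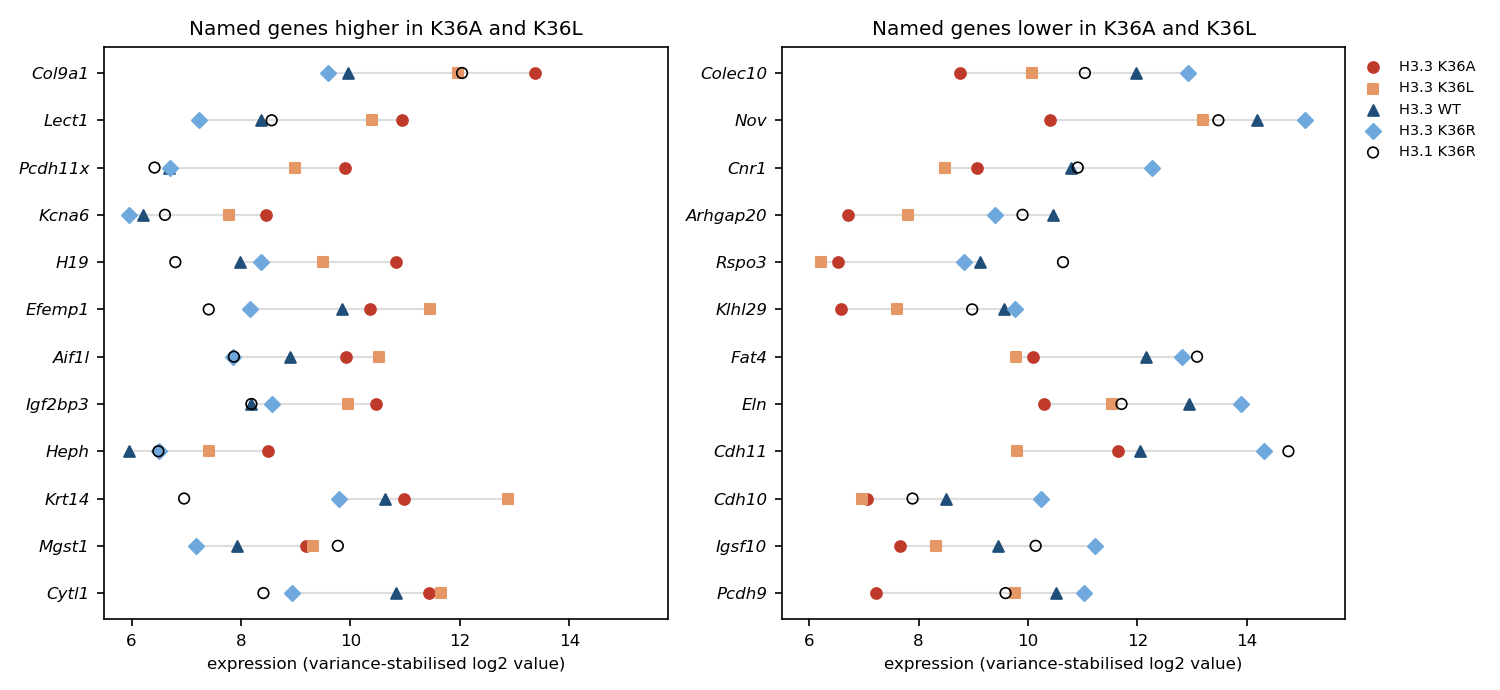
Variance-stabilised log2 values of the 12 named genes higher (left) and the 12 lower (right) in K36A and K36L, with 1 point per H3.3 library and open circles for H3.1 K36R, which was not used to choose them. The filled points of the classes do not overlap in any of these genes, by their choice; the open circle lies nearer the basic mean in 10 of 12 on the left and 9 of 12 on the right, beside 59.8% of all tested genes.

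Cell adhesion genes made up 4 of the 12 lower ones. Fat4 (chr3:38886940-39011985), an atypical cadherin of planar polarity and Hippo signalling, had 977 normalised reads in K36A and 761 in K36L against 4469 in WT and 7055 in K36R. Its mean reads were 0.151 times those of the basic class, with a difference of −2.55 (SE 0.24; limma adjusted p = 0.197). Cdh11 (chr8:102632095-102785642), the cadherin of mesenchymal and bone cells, had 3059, 772, 4083 and 20309. WT lay near K36A there, and K36R far above the other 3. Cdh10 (chr15:18818947-19014236), a type II cadherin, had 38.3 and 31.2 against 250 and 1089, and Pcdh9 (chr14:93013410-93890679), a protocadherin, 51.7 and 749 against 1337 and 1972. In Pcdh9 it was K36A that stood apart.

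Secreted and matrix proteins made up another group of the lower genes. Rspo3 (chr10:29452416-29535867), R-spondin 3, which strengthens WNT signalling through LGR receptors, had 9.58 normalised reads in K36A and 1.95 in K36L against 442 in WT and 339 in K36R. The aliphatic class was at 0.0148 times the mean reads of the basic class, a ratio that rests on aliphatic values near 0. Its aliphatic mean (6.36) lay below the filter value of 6.95, so Rspo3 was tested only because of its basic values. The difference was −2.62 (SE 0.19), with the smallest adjusted p of the 24 named genes, 0.179 (limma). Eln (chr5:134702593-134747323), elastin, had 1137, 2838, 7794 and 15057. Nov (chr15:54745702-54754039), the matricellular protein CCN3, had 1243, 9229, 18570 and 33943, lowest in K36A and highest in K36R. Colec10 (chr15:54410774-54466358), a collectin that binds sugars, had 320, 958, 3930 and 7622, a difference of −3.03 (SE 0.51), the largest of the lower genes. Igsf10 (chr3:59316735-59344394), an immunoglobulin-domain protein, had 98.7, 207, 581 and 2267.

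The other 3 lower genes act inside or at the surface of the cell. Cnr1 (chr4:33924593-33948831), the cannabinoid receptor CB1, had 421 and 247 normalised reads in K36A and K36L against 1634 in WT and 4809 in K36R. Klhl29 (chr12:5077472-5375682), a Kelch-repeat protein, had 12.5 and 91.6 against 641 and 748, with WT and K36R close together. Arhgap20 (chr9:51765337-51853856), a GTPase-activating protein, had 17.2 and 117 against 1273 and 556. K36R was the highest library in 10 of the 12 lower genes, while WT was above K36R in 2, Rspo3 and Arhgap20. Exons of another gene overlap those of Arhgap20, Rspo3, Fat4, Eln and Igsf10.

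H3.1 K36R carries the same arginine in the replication-coupled H3.1 and took no part in choosing the genes. Its value was nearer to the mean of the basic class in 10 of the 12 higher genes and in 9 of the 12 lower ones, beside 59.8% of all 14030 genes. Among all genes whose classes did not overlap, it was nearer to the basic mean in 68.9% of the higher genes, and in 62.4% of the lower ones, the latter close to the share of all genes. Rspo3 had 1471 normalised reads in H3.1 K36R and Fat4 8593, both above WT and K36R. Pcdh11x had 6.56, near the basic libraries. Col9a1 went the other way, with 4087 in H3.1 K36R, close to K36L, and so did Mgst1 with 753, above all 4 libraries. Among the lower genes the exceptions were Eln, Cdh10 and Pcdh9. In 6 of the 12 higher genes H3.1 K36R lay below all 4 libraries of the comparison, as for Krt14 with 31.7, so nearness to the basic mean there does not place it within that class.

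H3.3 K36M was nearer to the aliphatic mean in 5 of the 12 higher and 7 of the 12 lower genes, and H3.3 K36I in 6 and 9. H3.1 K36M was nearer to it in 3 and 6. Over all tested genes these libraries were nearer to the aliphatic mean in 51.3%, 59.3% and 46.8%. The shares of named genes lay furthest from these for H3.1 K36M in the higher genes (25%) and H3.3 K36I in the lower ones (75%). H3.1 K36M was nearer to the basic mean in 9 of the 12 higher genes, beside 10 for H3.1 K36R. These counts were not tested. Pcdh11x had 2990 normalised reads in H3.3 K36M and 2636 in H3.3 K36I, above K36A and K36L. Cytl1, in contrast, had 5.73 in H3.3 K36M and 5.1 in H3.3 K36I, below every library of the comparison.

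Gene lists are described by how many of their measured members had classes that did not overlap, beside the 17.2% of all genes that were higher and the 17.8% that were lower. Of all lists, 0 members passed the adjusted threshold. Of the 20 chondrogenic genes measured, 8 (40%) were higher without overlap and 0 were lower without overlap. With overlapping genes counted too, 15 of the 20 had a difference above 0, so not all members went that way. At an unadjusted p under 0.05 (limma), 7 were higher, and the median difference was 0.47 against 0.00 over all genes. This median was 0.17 without K36R and 0.31 without K36A, and −0.09 with Rn45s as a covariate. The median deviation from the gene's mean was 0.37 in K36A, 0.07 in K36L, 0.00 in WT and −0.33 in K36R, so K36L and WT nearly coincided. Apart from Col9a1 and Cytl1, the 8 genes were Col9a2 and Col9a3 (the other type IX collagen chains), Col11a2 (a type XI chain), Matn4 (a matrilin), Sox9 (the master regulator of cartilage) and Wwp2, a ubiquitin ligase that hosts a cartilage microRNA. Sox9 had 4423 normalised reads in K36A, 3838 in K36L, 3127 in WT and 3037 in K36R, a difference of 0.41 (SE 0.10). Col9a3 had 1715, 854, 757 and 391, and Matn4 had 1232, 799, 531 and 542. Col11a2 had 2118, 1237, 940 and 1021, and Col9a2 had 122, 40.9, 16.7 and 22.8. Wwp2 had 55738, 52519, 47216 and 36121. K36A was the highest library in all 6 of these, and K36L lay between it and the basic class. K36A was also the library with the most Rn45s; with Rn45s level as a covariate the difference turned negative for Col9a2 (−0.24), Col9a3 (−0.58) and Col11a2 (−0.26).

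**Figure D3:**
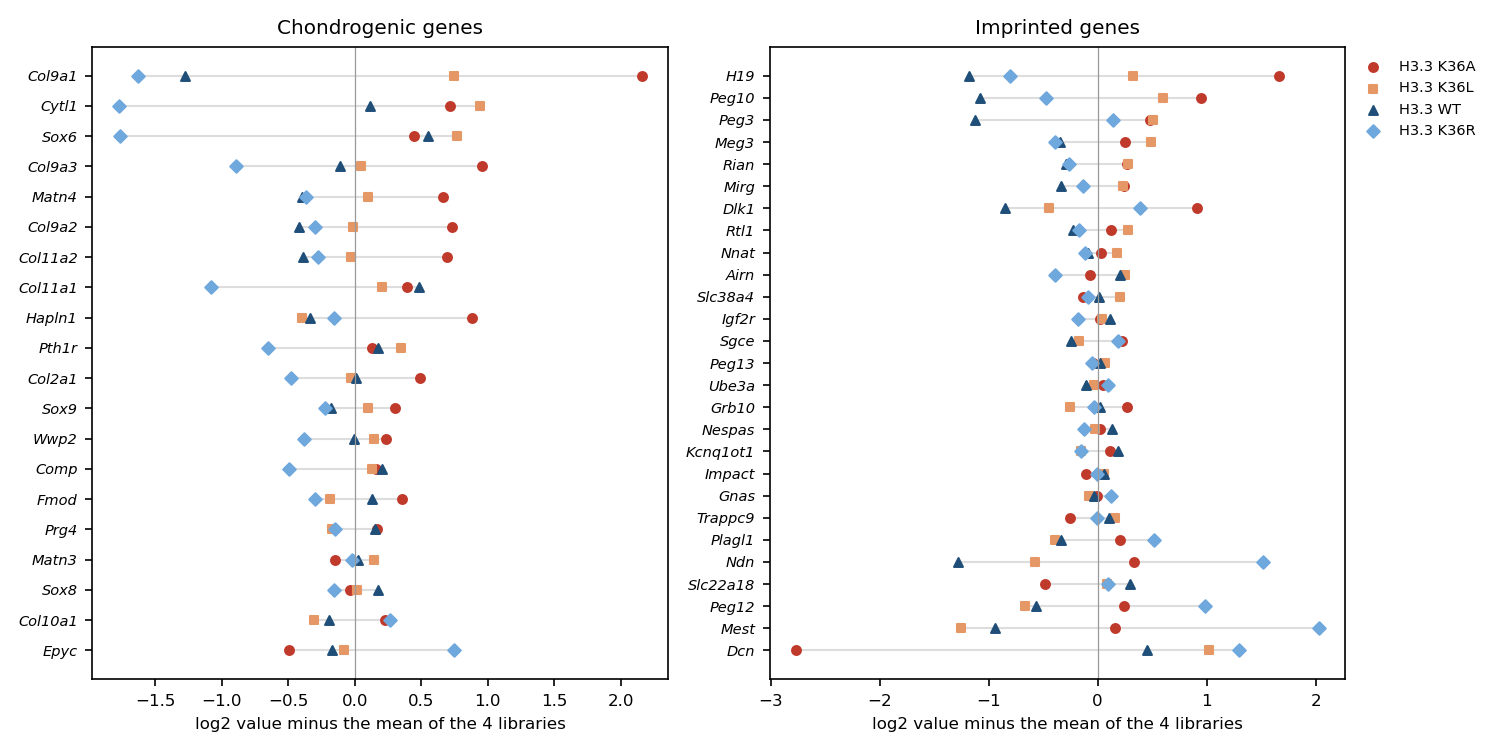
Log2 value minus the gene's mean over the 4 libraries for the 20 measured chondrogenic genes (left) and the 27 measured imprinted genes (right), with 1 point per library. In 8 genes of each panel both aliphatic libraries lie to the right of both basic ones; in 0 chondrogenic genes and 1 imprinted gene they lie to the left.

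Of 27 imprinted genes, expressed from the copy of 1 parent, 8 (29.6%) were higher and 1 (3.7%) was lower without overlap, with a median of 0.03 that ran from 0.06 to 0.20 with 1 library left out. Of these 8, 4 lie in the Dlk1-Dio3 cluster on chromosome 12, so the 29.6% counts 1 locus more than once. Meg3 (chr12:109541001-109571726), a maternally expressed long non-coding RNA, had 2812 normalised reads in K36A and 3351 in K36L against 1825 in WT and 1760 in K36R, a difference of 0.74 (SE 0.12). Rian (chr12:109603940-109661716), which hosts small nucleolar RNAs, had 7482 and 7535 against 5021 and 5116, a difference of 0.56 (SE 0.08; limma adjusted p = 0.317). Mirg, a microRNA host, had 664 and 656 against 406 and 487, and Rtl1, a retrotransposon-derived gene of the paternal copy, 338 and 392 against 244 and 259. In these 4 genes the aliphatic libraries lay close together, and exons of other annotated genes overlap those of each. Peg10, another retrotransposon-derived gene, had 1856 and 1434 against 367 and 623, a difference of 1.55. Peg3, a zinc finger gene, had 186 and 192 against 13.0 and 126, so that WT alone was low. Dcn, which encodes the proteoglycan decorin, overlapped between the classes, with 40.2 normalised reads in K36A, 1765 in K36L, 1152 in WT and 2144 in K36R.

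Of 31 WNT genes measured, 8 (25.8%) were lower and 3 (9.68%) higher without overlap, with 6 and 2 at an unadjusted p under 0.05 and a median of −0.05. The median was not stable in sign: it was 0.04 without K36R, −0.13 without K36A and −0.11 without WT. The lower ones held ligands, receptors and antagonists. Besides Rspo3, the R-spondin Rspo2 (chr15:43020794-43170826) had 9178 normalised reads in K36A and 9409 in K36L against 17885 in WT and 17018 in K36R, a difference of −0.90 (SE 0.09; limma adjusted p = 0.197). Sfrp2, a secreted WNT-binding protein, had 1.92 and 33.1 against 288 and 135. The receptor Ror2 had 143 and 232 against 388 and 372, and Fzd8, a Frizzled receptor, 1013 and 1592 against 2024 and 2317. The higher ones included Nkd2, a cytoplasmic antagonist, with 191 and 177 against 78.1 and 97.8, and Axin2, a feedback target of the pathway, with 157 and 231 against 117 and 117.

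Interferon-stimulated genes had the largest share of lower members among lists of over 10 genes. Of 27 measured, 15 (55.6%) were lower and 2 (7.41%) higher without overlap, with a median of −0.21 that ran from −0.27 to −0.19 with 1 library left out. The differences were small, and 4 were lower and 1 higher at an unadjusted p under 0.05 (limma). The median deviation from the gene's mean was −0.05 in K36A, −0.12 in K36L, 0.18 in WT and 0.00 in K36R. By that measure WT stood apart and K36R lay near K36A. Irf9 and Stat2, partners in the factor that carries the type I interferon signal, had lower values in both aliphatic libraries. Irf9 had 685 normalised reads in K36A, 560 in K36L, 834 in WT and 847 in K36R, and Stat2 had 1246, 1239, 1524 and 1551. Ifi27 had 2451, 2785, 3522 and 3263. Gbp2 and Igtp, GTPases of the interferon response, were low throughout, Gbp2 at 26.8, 35.1, 47.4 and 107 and Igtp at 42.1, 40.9, 80.9 and 68.4. Dhx58, a helicase of RNA sensing, went the other way with 216, 236, 144 and 80.7. Exons of Irf9 and Igtp overlap those of another gene on the same strand, so part of their reads may belong to the neighbour.

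**Figure D4:**
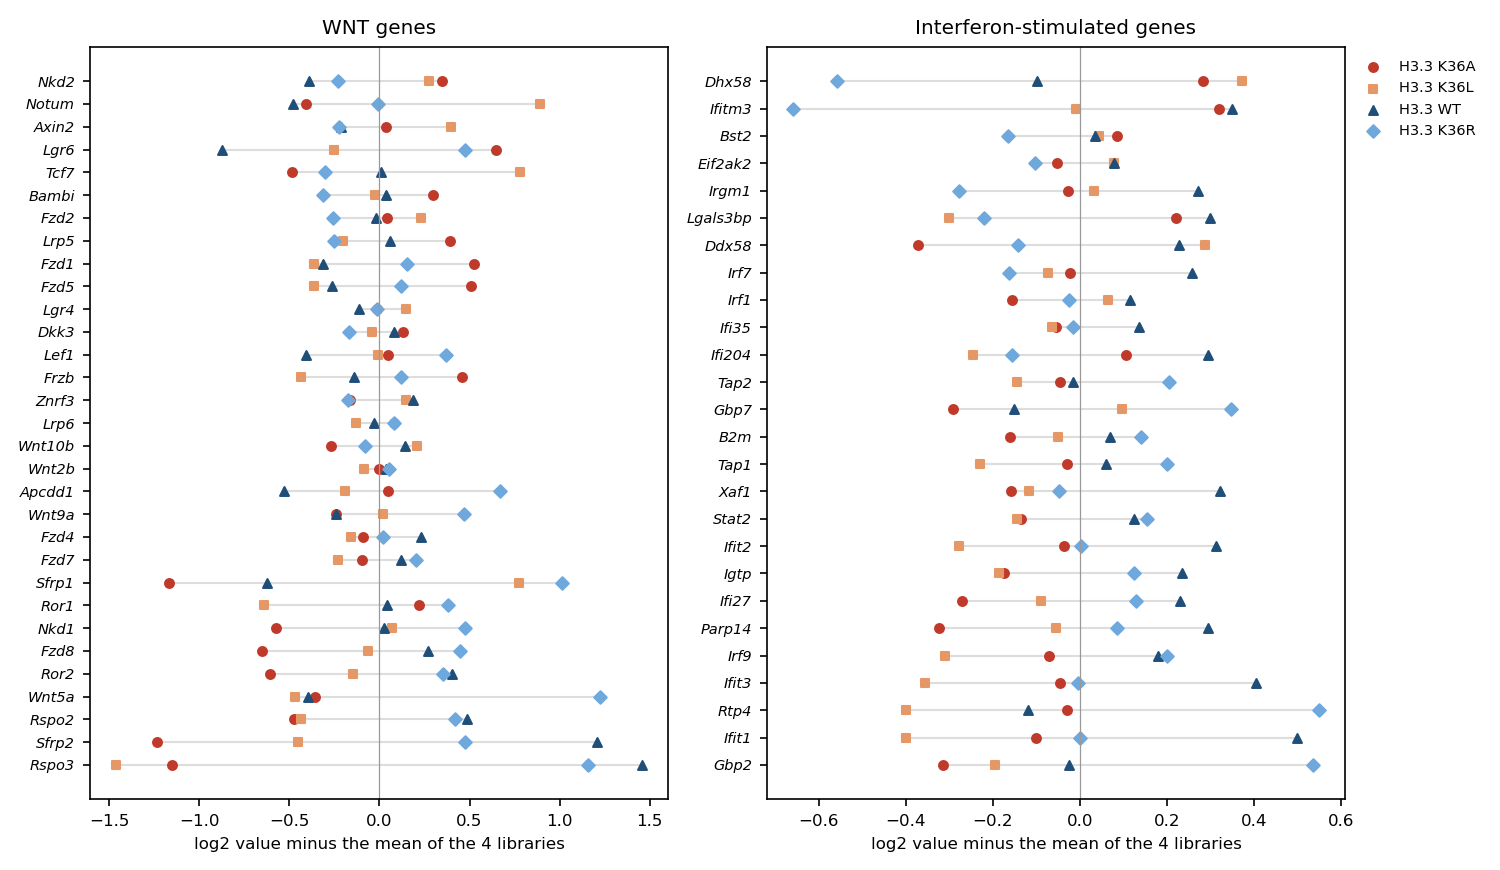
Log2 value minus the gene's mean over the 4 libraries for the 31 measured WNT genes (left) and 26 of the 27 measured interferon-stimulated genes (right), with 1 point per library; the horizontal scales differ. Rspo3 and Sfrp2 show the widest gaps between the classes on the left, and on the right both aliphatic libraries lie below both basic ones by small amounts in genes such as Irf9, Stat2 and Ifi27.

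Of 35 BMP and TGF-beta genes, 13 (37.1%) were lower and 4 (11.4%) higher without overlap, with a median of −0.17. That median was −0.03 without K36R and 0.10 with Rn45s as a covariate. Bmp4, a bone morphogenetic protein, had 5543 normalised reads in K36A, 8845 in K36L, 10147 in WT and 16732 in K36R, and Inhbb, an activin subunit, had 69.0, 166, 242 and 582. Tgfbi, a matrix protein that TGF-beta induces, was higher, at 534, 309, 66.9 and 141. The Notch list of 16 held 4 lower and 2 higher genes. Its target genes Hey2 and Hey1, which encode repressors, had 63.2, 17.5, 323 and 683, and 261, 210, 387 and 1043, with differences of −2.18 (SE 0.36) and −1.14 (SE 0.40). In the Hedgehog list of 14, 3 were higher and 3 lower. Ptch1, the receptor and a target of the pathway, had 2958, 2888, 1902 and 1589, and Cdon, a co-receptor, 895, 1209, 1823 and 1870. Of 34 genes of the FGF, PDGF and IGF axis, 4 (11.8%) were lower and 1 (2.94%) higher, both below the shares of all genes. Igf1 had 153, 542, 1261 and 1159, and the ligand Pdgfd 199, 220, 533 and 862.

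Of 52 collagen and matrix genes, 14 (26.9%) were lower and 4 (7.69%) higher without overlap, with a median of −0.14. That median was −0.29 without WT, −0.05 without K36L and −0.00 without K36R, and the median deviation from the gene's mean was 0.02 in K36A, −0.12 in K36L, −0.01 in WT and 0.25 in K36R. Of 23 matrix proteases and inhibitors, 7 (30.4%) were lower and 2 higher, with a median of −0.24 that was −0.03 without K36R and 0.09 with Rn45s as a covariate. Mfap5, a microfibril protein, had 337 normalised reads in K36A, 340 in K36L, 855 in WT and 3316 in K36R. Lox, which cross-links collagen and elastin, had 174861, 189210, 243999 and 261601. Lama5, a laminin chain of basement membranes, was higher, at 1203, 1650, 628 and 664. Serpine2, a protease inhibitor, had 7181, 14814, 19851 and 17834, and Mmp16, a membrane-bound metalloproteinase, overlapped at 2609, 2798, 2605 and 7031. Of 20 smooth muscle genes, 5 were lower and 3 higher; Acta2, smooth muscle actin, had 31351, 19378, 34856 and 67598. Of 11 skeletal and cardiac muscle genes, 4 (36.4%) were lower and 0 higher without overlap, but 5 of the 11 had a difference above 0. The median was −0.04, and it was 0.16 without K36A and 0.42 with Rn45s as a covariate. Among the 4 lower genes was the transcription factor Mef2c, with 314, 411, 1143 and 1832 and a difference of −1.72 (SE 0.24).

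Of 13 osteogenic genes, 1 was higher and 2 lower without overlap. Spp1 (osteopontin, a bone matrix protein) had 17575 normalised reads in K36A, 15527 in K36L, 9447 in WT and 6212 in K36R. Of 22 adipogenic genes, 1 (4.55%) was higher and 5 (22.7%) lower, with a median of −0.02. Lpl, lipoprotein lipase, had 53.6, 344, 434 and 518, and Dgat2, which makes triglyceride, 634, 966, 1716 and 998. Of 41 developmental transcription factors, 9 were lower and 4 higher. Osr1 had 561, 1042, 1160 and 2056, and Lhx9 had 238, 214, 108 and 90.2. Of 8 Hox genes, 1 was higher and 0 lower, with differences of 0.17 (SE 0.13) for Hoxa10 and 0.14 (SE 0.17) for Hoxa5.

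**Figure D5:**
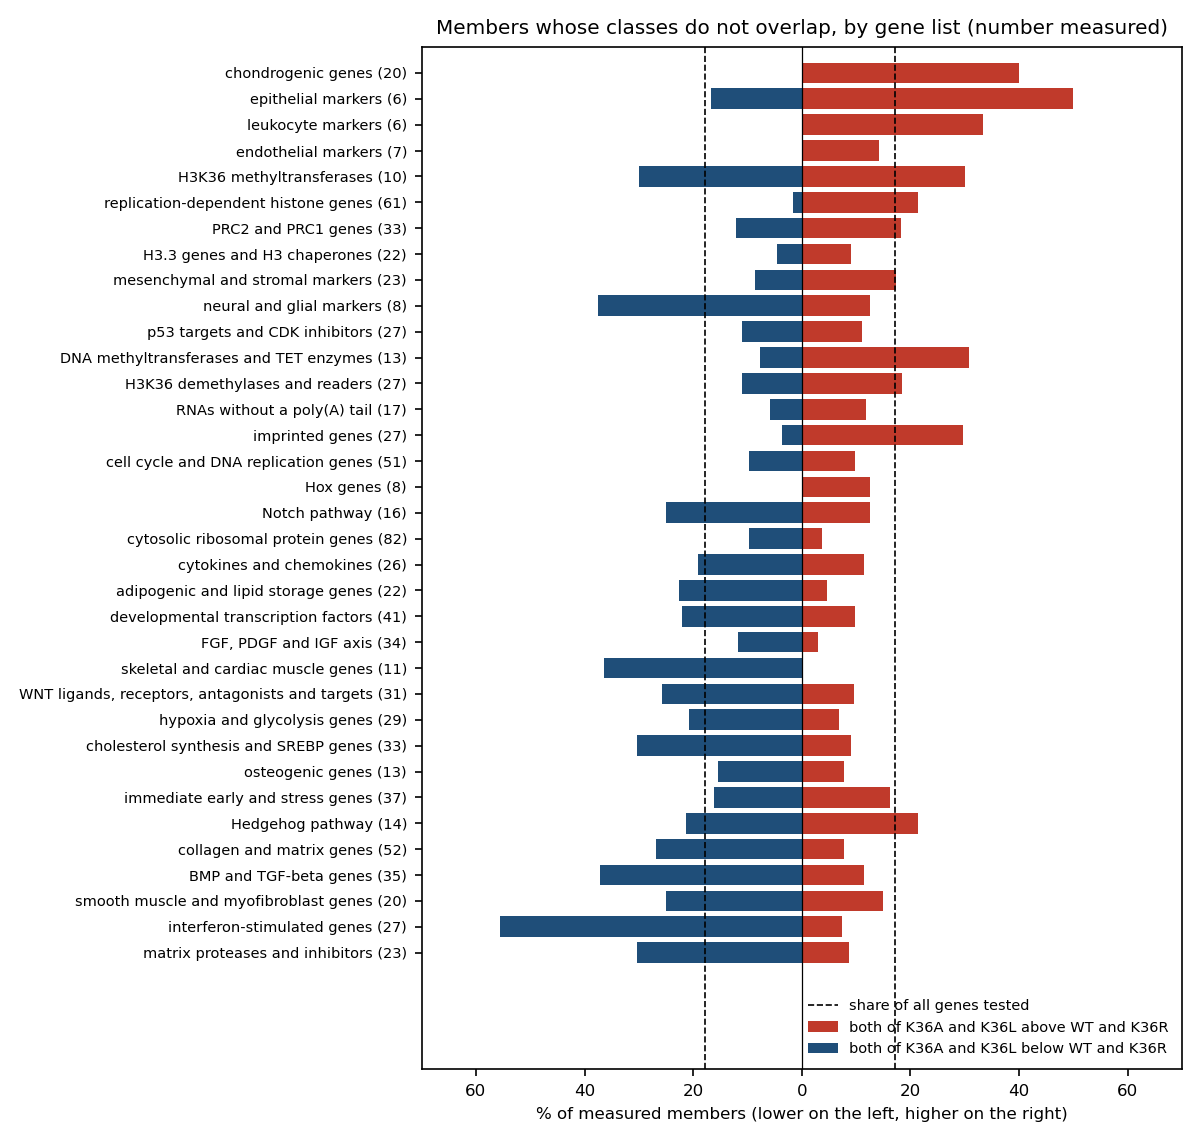
For each gene list, the percentage of measured members whose values in K36A and K36L are both above (right) or both below (left) those in WT and K36R; dashed lines mark 17.2% and 17.8%, the shares among all tested genes. Chondrogenic genes reach 40% on the right and 0% on the left, and interferon-stimulated genes 55.6% on the left.

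The enzymes and complexes around lysine 36 differed little between the classes. Setd2 had 6636 normalised reads in K36A, 6676 in K36L, 6588 in WT and 7252 in K36R, a difference of −0.05 (SE 0.09). Differences were 0.15 (SE 0.14) for Nsd1, 0.18 (SE 0.10) for Whsc1, −0.06 (SE 0.08) for Whsc1l1 and 0.07 (SE 0.08) for Ash1l. Of 10 H3K36 methyltransferases, 3 were higher and 3 lower without overlap; Prdm9, a methyltransferase of meiosis, had 125, 90.6, 187 and 173. Among 27 demethylases and readers, 5 were higher and 3 lower, with Kdm4b at −0.20 (SE 0.12) and Phf19 at 0.20 (SE 0.34). The PRC2 core genes Ezh2, Eed and Suz12 had differences of −0.14 (SE 0.10), 0.07 (SE 0.10) and 0.22 (SE 0.11). In the list of 33 PRC2 and PRC1 genes, 6 were higher and 4 lower. Pcgf5, a PRC1 subunit, had 1410, 1409, 1033 and 846, and Cbx7, a PRC1 reader of methylated lysine 27, 278, 245, 400 and 340.

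Reads on the H3.3 genes, whose codons for lysine 36 are printed above, did not separate the classes. H3f3a had 8916 normalised reads in K36A, 7720 in K36L, 9361 in WT and 7888 in K36R, and H3f3b had 75936, 103244, 81513 and 72642. How reads from the transgene were assigned between these genes is not given, so these values do not measure the transgene. Of 22 H3.3 and chaperone genes, 2 were higher and 1 lower without overlap, with H2afy2, which encodes a macroH2A variant, at 0.18 (SE 0.15). Of 13 DNA methyltransferase and TET genes, 4 were higher and 1 lower; Mbd4, a DNA glycosylase, was at 0.37 (SE 0.16) and Tet3 at 0.20 (SE 0.11). Of 61 replication-dependent histone genes measured, 54 had a difference above 0, 13 (21.3%) were higher and 1 (1.64%) was lower without overlap, and the median was 0.08. K36R alone was low: the median deviation from the gene's mean was 0.04 in K36A, 0.03 in K36L, 0.06 in WT and −0.14 in K36R. Without K36R the median difference was −0.02, and without WT it was 0.19. Hist3h2ba and Hist2h2be had the largest differences, 0.27 (SE 0.25) and −0.22 (SE 0.15). Most of these transcripts lack a poly(A) tail. Of 17 RNAs without a poly(A) tail, Rn45s included, 2 were higher and 1 lower, and without Rn45s their sum was 1180824 in K36A, 1314686 in K36L, 1268854 in WT and 1128484 in K36R, so the sum did not follow the classes. Scarna10, a guide RNA of Cajal bodies, was at −0.20 (SE 0.12).

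Growth, stress and metabolic lists were counted in the same way. Of 51 cell cycle genes, 5 were higher and 5 lower without overlap, with a median of 0.02; Ccne1 (cyclin E1) was at −0.36 (SE 0.19) and Cdk6 at 0.30 (SE 0.16). Of 27 p53 targets and CDK inhibitors, 3 were higher and 3 lower. Fas, a death receptor, had 1230 normalised reads in K36A, 952 in K36L, 1510 in WT and 1986 in K36R, and Gadd45a was at −0.40 (SE 0.19). The immediate early and stress list of 37 held 6 higher and 6 lower genes. Nqo1, a quinone reductase, had 25619, 25676, 19808 and 12158, and Fosb, an AP-1 factor, was at −0.45 (SE 0.31). Of 29 hypoxia and glycolysis genes, 6 (20.7%) were lower and 2 (6.9%) higher. Pdk1, which inhibits pyruvate dehydrogenase, had 1154, 911, 1826 and 2907, and Epas1 (HIF-2 alpha) overlapped at 329, 1647, 1788 and 1077. Of 33 cholesterol synthesis genes, 10 (30.3%) were lower and 3 (9.09%) higher, with a median of −0.07 and Hsd17b7, an enzyme of the pathway, at −0.21 (SE 0.12). Of 82 ribosomal protein genes, 8 were lower and 3 higher, with Rpl22l1 at −0.22 (SE 0.08) and Rpl27 at 0.19 (SE 0.13). Of 26 cytokine and chemokine genes, 5 were lower and 3 higher. Il1rn, the IL-1 receptor antagonist, overlapped at 6417, 1209, 5545 and 3677.

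Markers of other cell types that had reads were also compared. Of 6 epithelial markers past the filter, 3 were higher and 1 lower without overlap. Their list's sum was 3436 normalised reads in K36A and 8882 in K36L against 2375 in WT and 1909 in K36R, and Krt14 alone had 1890, 7403, 1462 and 764 of these. Sprr1a, a cornified envelope gene, had 144 and 326 against 16.7 and 26.6. Leukocyte markers summed to 1263, 953, 891 and 716, and 2 of 6 were higher. These were not defining markers: Lcp1, an actin-bundling protein, had 551, 112, 53 and 74.1, and Coro1a, another actin-binding protein, 62.3, 61.4, 34.4 and 18. Of 8 neural markers, 3 were lower and 1 higher; Ncam1, an adhesion molecule, had 810, 2155, 2659 and 3386, and Stmn2 overlapped at 1188, 3506, 2437 and 6838. Of 7 endothelial markers, 1 was higher and 0 lower, with Flt1 at 0.25 (SE 0.12) and Egfl7 at −0.33 (SE 0.29). Of 23 mesenchymal and stromal markers, 4 were higher and 2 lower. Alcam, an adhesion molecule, had 9789, 7201, 2838 and 6960, and Ly6e had 401, 409, 279 and 189. In bulk RNA, fewer cells with a transcript and less transcript per cell cannot be told apart.

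The comparison rested unevenly on the libraries. With WT left out, K36A and K36L were compared with K36R alone, and 28 genes passed the adjusted threshold (limma), 9 higher and 19 lower. Those included Lect1, Mgst1, Cytl1, Cnr1, Rspo3, Fat4 and Cdh10 from the named genes, Mfap5 and Pgm5. In that fit the basic class has 1 library, which is assumed to vary as much as the others. With K36R, K36A or K36L left out, 0 genes passed. With the Rn45s level as a covariate, 283 genes had an unadjusted p under 0.05, in place of 851, and 0 passed the adjusted threshold. The difference then turned from negative to positive for Nov (1.31) and Pcdh9 (1.38) among the 24 named by size, and among the named list members without overlap for Bmp4 (0.32), Lpl (1.08), Serpine2 (0.47), Inhbb (0.17), Igf1 (0.07), Osr1 (0.47), Ccne1 (0.07), Ncam1 (0.79) and Fzd8 (0.17). It turned negative for Lcp1 (−0.86), Tet3 (−0.05), Whsc1 (−0.05), Ash1l (−0.03) and Suz12 (−0.13), as for the collagens above. Other differences kept their sign and moved in size: Col9a1 to 0.85, H19 to 0.34, Heph to 0.53, Colec10 to −0.85, Eln to −0.43, Igsf10 to −0.70 and Krt14 to 3.92. Rspo3 (−3.16) and Fat4 (−2.69) stayed near their values without the covariate. That fit leaves 1 residual degree of freedom.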

How the data were processed

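Per the labels' protocols, RNA came from Trizol extraction and libraries from an Illumina TruSeq kit. Tools named in the submitters' processing notes are featureCounts 1.4.4, STAR 2.3.0e, Trimmomatic 0.32 and DESeq2 without a version, with the build mm10. Their settings, the annotation and the strand mode are not given in the sources at hand. The deposited values are log2 values: the authors' variance-stabilising transformation of reads per gene, without length correction, for 31276 genes in 8 libraries. Inverting it gave whole reads for 100% of values, within 0.001 reads. At these depths the limit that a count of 0 allows, 3 reads, is 4.68e-06% to 4.85e-06% of a library, for counting error only. Differences of genes with few reads are understated on this scale.

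The 14030 genes kept had a mean over the 4 libraries that exceeded the lowest value by 1 or more (31 normalised reads), and 17246 were left out. Mir6984 (mean 6.9531) was just inside and Slco2a1 (6.9522) just outside. A gene could pass through 1 class alone. Rspo3 and Sfrp2 did so through the basic class. Pcdh11x, Kcna6, Heph, Sprr1a, Col9a2 and Coro1a did so through the aliphatic class. The class difference was tested two-sided in limma 3.58.1 (R 4.3.3) with a trend on intensity, 2 residual and 3.21 prior degrees of freedom, and Benjamini-Hochberg adjustment over all 14030 genes at 0.05. The labels do not mention repeat derivations or cultures of a line. The p-values thus measure only how far these lines spread, which may be technical in part.

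Named genes were the 12 with the largest difference each way among called genes, filled, since none was called, from genes whose classes did not overlap with an unadjusted p under 0.05. They also include the 2 largest differences of each list, and the H3.3, H3K36 and PRC2 genes in any case. Predicted genes, clone names, pseudogenes and small RNAs were left out of the first part. A few members of the lists are not reported here by name. Other members of the lists that are named were chosen after their values were seen. The members and the 36 lists were chosen with earlier results of these data known. Of 1193 listed genes, 1149 were in the table and 881 past the filter; the mitochondrial list had none in the table. Positions are from GENCODE M21 (GRCm38), matched by symbol for 12746 genes (90.8%). Exon overlap is stated above for some genes only, and other named list members, such as Whsc1, Ash1l and Col9a3, have it too.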

Additional observations from a re-analysis of the deposited data

How the results depend on the processing

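No paired analysis was possible because the labels give no replicate numbers and each transgene had 1 library. The count of 0 genes past an adjusted p of 0.05 became 1 (Pgm5, lower) with a filter at 2 above the lowest value. The same held with robust empirical Bayes, with the spread taken from the 6 H3.3 libraries, and with all 8 libraries fitted. The fit of all 8 adds no spread of its own, since each H3.1 library stood alone in its class. The count stayed 0 without a filter, with library medians set equal, without the trend, with Rn45s as covariate and with voom. Leaving out 1 library gave 0 to 28 genes (0 to 9 higher, 0 to 19 lower) and 0 to 4 list members; the 28 and the 4 came without WT. At an unadjusted p under 0.05 the count of 851 became 672 with the filter at 2, 1328 without a filter and 283 with Rn45s as covariate, and ran from 604 to 1282 with a library left out. With a gap of at least 0.5 or 1 between classes, 4923 genes became 201 or 58. At a difference of at least 2, the pairs had 14 (K36A and K36L), 53 (K36A and WT), 90 (K36A and K36R), 20 (K36L and WT), 60 (K36L and K36R) and 22 genes (WT and K36R).

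The 12 higher genes kept their direction in all 154 alternative values. Of the 155 for the 12 lower genes, 2 reversed, with Rn45s as covariate: Nov (1.31) and Pcdh9 (1.38). Most of this was fixed in advance. The classes of these genes were chosen not to overlap, so leaving out 1 library could not reverse a sign. Changes to the filter, trend or spread leave the difference itself unchanged. Only equal medians, voom and the Rn45s covariate could reverse a sign. The same covariate reversed Setd2 (0.02), Nsd1 (−0.24), Whsc1 (−0.05), Ash1l (−0.03), Eed (−0.14), Suz12 (−0.13), Bmp4 (0.32), Lpl (1.08), Serpine2 (0.47), Mmp16 (0.09), Inhbb (0.17), Igf1 (0.07), Hoxa5 (−0.38), Osr1 (0.47), Tet3 (−0.05), Ccne1 (0.07), Fosb (0.55), Epas1 (1.63), Dcn (3.75), Lcp1 (−0.86), Ncam1 (0.79), Stmn2 (1.67), Col9a2 (−0.24), Col9a3 (−0.58), Col11a2 (−0.26) and Fzd8 (0.17). That fit has 1 residual degree of freedom, and the cause was not tested. With 1 library left out, the sign varied for H3f3a (−0.17 to 0.07), H3f3b (−0.02 to 0.42), Setd2 (−0.12 to 0.01), Nsd1 (−0.01 to 0.31), Eed (−0.01 to 0.15), Mmp16 (−1.34 to 0.05), Il1rn (−1.80 to 0.50), Hoxa5 (−0.06 to 0.34), Phf19 (−0.18 to 0.58), Hist3h2ba (−0.03 to 0.58), Epas1 (−1.77 to 0.23) and Dcn (−3.64 to 0.15).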
